A study of Mus musculus with 2 samples.

Results

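The genes described here are 34 genes of glucose use and of the response to low oxygen, found among the deposited features by their symbols. They are 34 of 32245 gene symbols, and they fill 35 of the 32285 feature rows because Aldoa has 2 rows. Of the 34, 18 act in glucose uptake, glycolysis and lactate handling: 2 glucose transporters, 12 glycolytic enzymes with the regulator Pfkfb3, and 3 genes of pyruvate and lactate. The other 16 are known as genes that rise when oxygen is low. The rule is a list of symbols and uses no measured value, although the list was drawn up with earlier results of these data known.

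Single cells of 2 mouse pancreatic tumours were profiled with the 10x Genomics 3′ kit, 1 library per tumour and 1 tumour per group. The tumours grew as orthotopic allografts from KPC cells, a line of murine pancreatic cancer, injected into the pancreas after lentiviral transfer of a control hairpin (KPC-shV) or of a hairpin against Zeb1 (KPC-shZEB1). Only the injected tumour cells carried a hairpin, so every immune, stromal and vascular cell came from an unmodified host. The labels give no drug, whereas the text of the study describes gemcitabine for the sequenced tumours, a treatment that both groups would then share. The study's methods name C57BL/6J, BABL/c and NSG mice a few weeks old as hosts. They do not say which strain or which selected hairpin line gave these 2 tumours. The study's text places the sequenced tumours in an experiment on immunocompetent mice.

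When oxygen is plentiful, prolyl hydroxylases mark the alpha subunits of hypoxia-inducible factors (HIF) for destruction by the Vhl ubiquitin ligase. When oxygen falls, the alpha subunits persist, pair with Arnt and bind short DNA elements that centre on the letters ACGTG or GCGTG near genes of glucose uptake, glycolysis, vessel growth, mitochondrial turnover and acid export. Glycolysis splits glucose into pyruvate, and Ldha turns the pyruvate into lactate, which Slc16a3 exports. Pancreatic tumours are known for poor perfusion, and neutrophils are known to draw most of their energy from glycolysis.

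To show these elements in 4 genes with differences past 1.5-fold below, and in the glycolytic enzyme Pgk1, stretches upstream of 5 member promoters are given 5′ to 3′. They come from the RefSeq promoter windows of GRCm38.p6, 250 bases before to 50 bases after each start, trimmed to letters outside every annotated exon. Capitals mark ACGTG, which reads as CACGT when it lies on the other strand, and GCGTG, which then reads as CACGC, and the palindrome CACGTG holds 2 overlapping matches. Bnip3 is at chr7:138909520-138909643 on the minus strand, Ero1l at chr14:45318611-45318702 on the minus strand, Ldha at chr7:46845639-46845794 on the plus strand, P4ha1 at chr10:59323113-59323295 on the plus strand and Pgk1 at chrX:106186930-106186993 on the plus strand. The Bnip3, P4ha1 and Pgk1 stretches lie before the annotated gene, and those of Ero1l and Ldha lie inside the annotated gene span, between exons, before a downstream RefSeq start.
Bnip3: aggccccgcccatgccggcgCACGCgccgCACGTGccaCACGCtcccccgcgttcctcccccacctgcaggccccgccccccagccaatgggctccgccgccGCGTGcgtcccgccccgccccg
Ero1l: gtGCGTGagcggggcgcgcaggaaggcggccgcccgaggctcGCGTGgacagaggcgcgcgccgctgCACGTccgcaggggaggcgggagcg
Ldha: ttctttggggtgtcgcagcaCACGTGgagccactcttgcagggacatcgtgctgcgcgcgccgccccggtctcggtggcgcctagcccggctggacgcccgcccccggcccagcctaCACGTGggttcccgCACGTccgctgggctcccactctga
P4ha1: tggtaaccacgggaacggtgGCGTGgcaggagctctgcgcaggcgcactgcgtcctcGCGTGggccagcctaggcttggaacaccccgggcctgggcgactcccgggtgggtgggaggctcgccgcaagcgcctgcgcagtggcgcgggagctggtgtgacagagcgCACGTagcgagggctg
Pgk1: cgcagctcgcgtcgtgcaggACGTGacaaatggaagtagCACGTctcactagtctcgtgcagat

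A promoter window was held by the RefSeq table for 31 of the 34 members, with Ero1l matched under its RefSeq symbol Ero1a. Slc2a3, Bnip3l and Ndrg1 had none. ACGTG on either strand was in a window of 24 of the 31 genes (77.4%), against 21.8% of all 27025 genes of the table. GCGTG was in 20 of 31 (64.5%), against 35.2% of all genes. At least 1 of the 2 was in 29 of 31 (93.5%), against 46.7% of all genes, and it was in all 14 of the hypoxia-regulated members with a window. Gpi1 and Tpi1 held no match. The member windows were also richer in G and C, with a median of 64.5% against 52.7% over all windows, so the shares are not matched for base composition. A match describes the letters of a window and does not show that a factor binds there.

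After filtering, 11399 cells of the KPC-shV-labelled library and 12105 of the KPC-shZEB1-labelled library were kept, with a median of 3721 and 4252 UMIs (unique molecular identifiers, 1 per captured RNA molecule) per cell. Zeb1, which checks the labels, was at 168 CPM (UMIs of a gene per 1000000 UMIs, 95% interval 163 to 172) in the tumour-like cells of the KPC-shV-labelled library and 188 CPM (183 to 192) in those of the KPC-shZEB1-labelled library, so it was not lower where the label names the knockdown. Zeb1 was also higher in the KPC-shZEB1-labelled library in granulocyte-like (159 and 237 CPM) and monocyte-macrophage-like cells (46.6 and 73.3 CPM). In B-like cells it was nearly equal (429 and 427 CPM), and T-like cells held it at 1305 and 1500 CPM. Estimated background RNA in tumour-like cells was 14.8% and 19.6% of UMIs. It was not subtracted from Zeb1, so these values cannot settle whether the labels are right. Directions below are therefore given between 2 labelled libraries. Cells were grouped into 11 classes by markers, and at least 9 of 10 markers of the tumour-like class, 9 of 9 of the granulocyte-like class and 11 of 12 of the monocyte-macrophage-like class were at least 3-fold above their median class in both libraries. The granulocyte-like class took up 60.2% of cells in the KPC-shV-labelled library and 35.2% in the KPC-shZEB1-labelled library. The libraries shared 46 cell barcodes, 36 of them among the kept cells.

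Values below are UMIs of a gene summed over the cells of a class, per 1000000 UMIs of that class (CPM). Where a pair of values is given, the KPC-shV-labelled library comes first, and a ratio is the KPC-shZEB1-labelled library over the KPC-shV-labelled library. Intervals of levels, ratios and shares are exact 95% intervals of counting error only. Members with an interval above or below 1 were counted without a share over all genes beside them. The range after a median log2 ratio runs from the median of the members' lower interval bounds to the median of their upper bounds and is no confidence interval of the median. Mouse, tumour, hairpin and library are the same split in this design, so no test was made and their parts cannot be told apart. A ratio of at least 1.5 or at most 1 over 1.5 is called past 1.5-fold, for genes with at least 50 UMIs over both libraries. A class sum does not show whether fewer cells carried an RNA or each cell carried less of it. The per-cell shares further on cannot separate these either, since a lower level in every cell also lowers the share of thinned cells with a UMI.

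In granulocyte-like cells most members were lower in the KPC-shZEB1-labelled library, with the hypoxia-regulated genes furthest apart. Past 1.5-fold lower were 12 of the 34 members, where 2.90% of all 12464 genes that met the minimum were past it on that side. Past 1.5-fold higher was 1 member, Car9, where 22.5% of all genes were. The 16 hypoxia-regulated genes together were 0.572% of the UMIs of these cells in the KPC-shV-labelled library and 0.351% in the KPC-shZEB1-labelled library, and the 18 glucose and glycolysis genes were 0.702% and 0.567%. The median log2 ratio was -0.62 (-0.71 to -0.51) over the hypoxia-regulated genes and -0.31 (-0.36 to -0.25) over the glucose and glycolysis genes, against 0.27 over all genes that met the minimum and 0.09 over genes of at least 50 CPM. The count of 12 changed with which subsets entered and how they were weighted: it was 7 without the subset described below that holds Mreg, and 1 with the subsets weighted equally.

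Ero1l, an oxidase of the endoplasmic reticulum that forms disulfide bonds, was at 956 CPM (943 to 969) in granulocyte-like cells of the KPC-shV-labelled library and 439 CPM (428 to 451) in those of the KPC-shZEB1-labelled library, a ratio of 0.459 (0.446 to 0.473). Hilpda, a lipid droplet protein that restrains fat breakdown, was at 1536 CPM (1520 to 1552) and 831 CPM (816 to 847), a ratio of 0.541 (0.530 to 0.553). Higd1a, a mitochondrial protein, was at 258 and 114 CPM, with the lowest ratio of the 34 members in this class, 0.441 (0.417 to 0.467). For each of these genes the intervals of the 2 libraries lay far apart. Bnip3, which tags mitochondria for removal, was at 318 and 150 CPM with a ratio of 0.471 (0.448 to 0.495), and its relative Bnip3l was at 282 and 175 CPM with a ratio of 0.621 (0.592 to 0.652). Egln3, a prolyl hydroxylase that acts back on HIF, was at 692 and 450 CPM, a ratio of 0.650 (0.631 to 0.670). Each of these 6 genes was past 1.5-fold lower in this class. P4ha1, a collagen prolyl hydroxylase, was at 354 and 206 CPM with a ratio of 0.582 (0.558 to 0.608). Ankrd37 was at 70.0 and 43.5 CPM with a ratio of 0.621 (0.564 to 0.683). Ddit4, an inhibitor of mTORC1 signalling, was at 54.7 and 35.7 CPM with a ratio of 0.652 (0.585 to 0.726).

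The same class held hypoxia-regulated genes with another direction. Vegfa, the vascular growth factor, was at 175 CPM (169 to 180) and 193 CPM (186 to 201), a ratio of 1.11 (1.05 to 1.16), which was 0.990 with the subsets weighted equally. Mxi1, a Myc antagonist, was at 169 and 180 CPM with a ratio of 1.07 (1.01 to 1.12). P4ha2, the second collagen prolyl hydroxylase of the list, was at 5.61 and 8.08 CPM with a ratio of 1.44 (1.1 to 1.88), and with background RNA subtracted it was at the floor of 3 counts in both libraries, 0.131 and 0.226 CPM. These were the hypoxia-regulated genes whose interval lay above 1 in granulocyte-like cells, 3 of 16, against 11 of 16 below 1. How many of all genes had such intervals was not counted. Mif, a cytokine, was at 738 and 591 CPM with a ratio of 0.802 (0.781 to 0.824), and Ndrg1 was at 108 and 86.8 CPM with a ratio of 0.807 (0.752 to 0.866), or at 76.7 and 36.0 CPM with a ratio of 0.470 when background RNA was subtracted. Adm, a vasodilator peptide, was at 4.73 and 4.60 CPM with a ratio of 0.974 (0.699 to 1.34). Car9, a carbonic anhydrase of the cell surface, was at 1.27 and 2.04 CPM, and its interval of 0.914 to 2.81 around 1.60 includes 1, and with background RNA subtracted it was at the floor, 0.131 CPM, in the KPC-shV-labelled library. With the subsets weighted equally, the ratios of Ero1l and Bnip3 were 0.690 and 0.709.

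Among the glucose and glycolysis genes of granulocyte-like cells, 15 of 18 had an interval below 1 and 1 had an interval above 1. The same count over all genes of the class was not made. Slc2a1, the broadly used glucose transporter, was at 377 and 296 CPM with a ratio of 0.784 (0.755 to 0.814). Slc2a3, a transporter of high glucose affinity, went the other way, at 59.5 CPM (56.4 to 62.7) and 65.4 CPM (61.2 to 69.9), a ratio of 1.1 (1.01 to 1.20). The genes past 1.5-fold lower were Pfkp, Tpi1 and Ldha. Pfkp, the platelet-type phosphofructokinase of the committed step, was at 469 CPM (460 to 478) and 270 CPM (262 to 279), a ratio of 0.576 (0.555 to 0.599). Tpi1, the triose phosphate isomerase, was at 344 and 211 CPM with a ratio of 0.612 (0.586 to 0.640). Ldha was at 591 and 367 CPM with a ratio of 0.622 (0.601 to 0.642).

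The remaining steps differed less. The hexokinases, which trap glucose in the cell, were close between the libraries, with Hk1 at 90.8 and 85.7 CPM (ratio 0.944) and Hk2 at 392 and 358 CPM (0.914). Gpi1, the glucose phosphate isomerase, was at 270 and 199 CPM (0.736), and Pfkl, the liver-type phosphofructokinase, was at 92.9 and 71.0 CPM (0.764). Pfkfb3, which makes the activator of phosphofructokinase, was at 189 and 133 CPM (0.703). Among the enzymes from the split of the sugar on, Aldoa, the aldolase that makes the split, was at 490 and 460 CPM (0.938). Gapdh, which oxidises the triose, was at 1582 and 1363 CPM (0.861). Pgk1, the first step that returns ATP, was at 325 and 247 CPM (0.759), and Pgam1, the mutase, was at 429 and 357 CPM (0.831). The enolase Eno1 was at 208 and 150 CPM (0.723), and the pyruvate kinase Pkm was at 813 and 752 CPM (0.925). Pdk1, which closes pyruvate dehydrogenase, was at 21.7 and 20.2 CPM, with an interval of 0.800 to 1.08, and Slc16a3 was at 278 and 266 CPM, with an interval of 0.919 to 0.998. Gapdh, Aldoa, Pgk1, Pgam1, Eno1, Tpi1, Ldha and Mif have near-identical copies elsewhere in the genome, so their counts may miss reads that match several places.

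**Figure D1:**
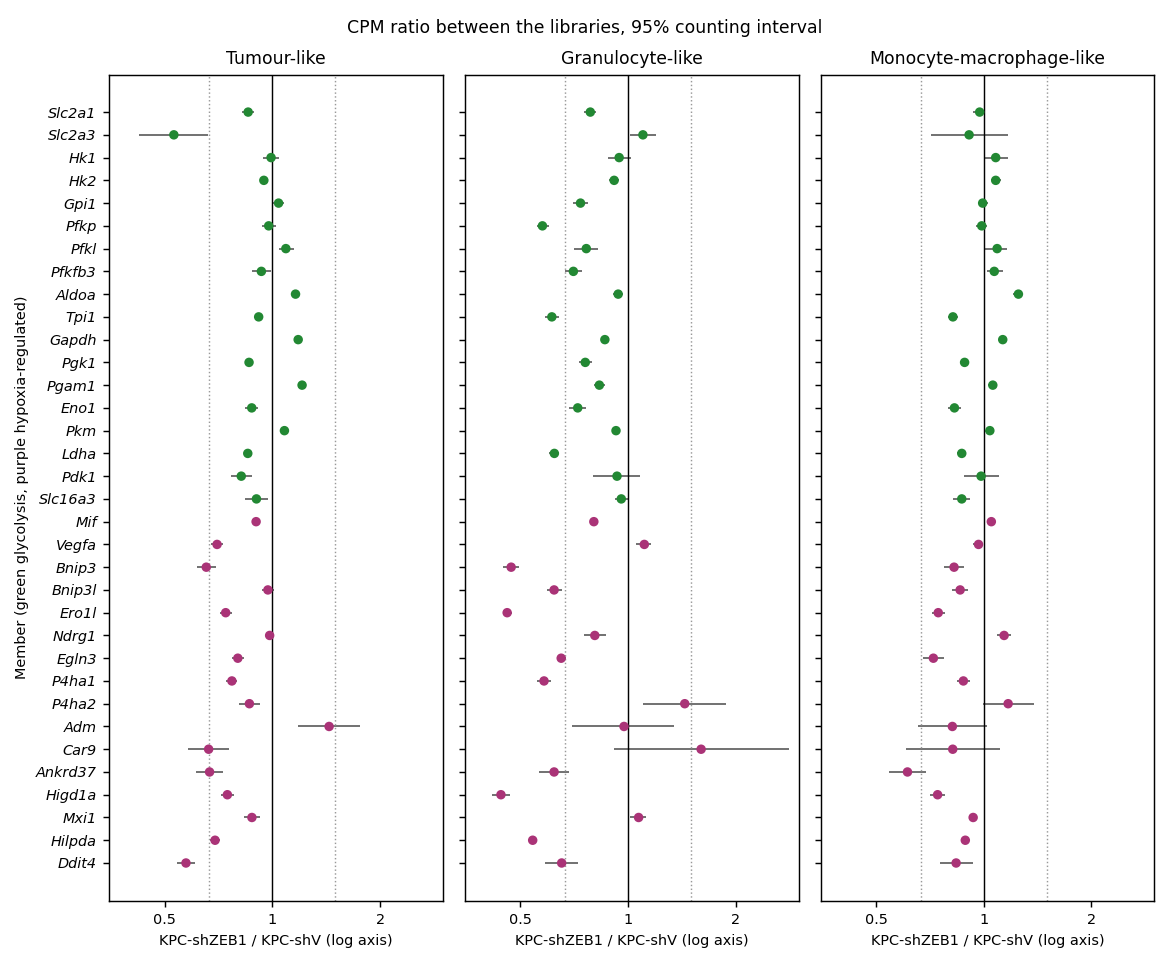
Ratio of CPM, KPC-shZEB1-labelled over KPC-shV-labelled library, for each of the 34 members (rows) in tumour-like, granulocyte-like and monocyte-macrophage-like cells, on a log axis with exact 95% counting intervals as bars and dotted lines at 1.5-fold in each direction. The granulocyte-like points of Higd1a (0.441), Ero1l (0.459) and Bnip3 (0.471) lie farthest to the left, while the monocyte-macrophage-like points lie close to 1 for most glycolytic enzymes.

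Tumour-like cells, a class named by markers, showed a smaller difference that lay mainly in the hypoxia-regulated genes. The injected cells are expected in this class, but the hairpin itself was not measured. Past 1.5-fold lower were 4 of 34 members (Slc2a3, Bnip3, Car9 and Ddit4), against 3.75% of all 15281 genes, and 0 of 34 were past it on the higher side, against 11.4% of all genes. Ankrd37 lay at the limit, at 36.7 and 24.5 CPM with a ratio of 0.667 (0.610 to 0.728). The hypoxia-regulated genes were 0.278% of UMIs in the KPC-shV-labelled library and 0.229% in the KPC-shZEB1-labelled library, with a median log2 ratio of -0.40 (-0.45 to -0.34). The glucose and glycolysis genes were 0.494% and 0.508% of UMIs, with a median log2 ratio of -0.09 (-0.14 to -0.03). Over all genes of this class the median was 0.04. With clusters named by another marker score the glycolysis median was 0.02 and none of the members was past 1.5-fold lower, so both values rest on how the class was drawn.

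Ddit4 had the lowest ratio among the hypoxia-regulated genes of tumour-like cells, at 96.1 CPM (92.8 to 99.4) and 55.1 CPM (52.6 to 57.6), a ratio of 0.573 (0.542 to 0.607). Bnip3 was at 77.8 and 50.8 CPM with a ratio of 0.653 (0.614 to 0.694). Car9 was at 16 and 10.6 CPM with a ratio of 0.663 (0.580 to 0.758). Vegfa, unlike in granulocyte-like cells, was lower in the KPC-shZEB1-labelled library, at 180 CPM (176 to 185) and 126 CPM (123 to 130), a ratio of 0.700 (0.673 to 0.728). Hilpda was at 241 and 166 CPM with a ratio of 0.691 (0.668 to 0.715), and Ero1l was at 181 and 134 CPM with a ratio of 0.740 (0.713 to 0.769). Higd1a was at 147 and 110 CPM (0.748), P4ha1 at 203 and 156 CPM (0.770) and P4ha2 at 53.1 and 45.7 CPM (0.862). Egln3 was at 189 and 151 CPM (0.800), Mxi1 at 100 and 87.9 CPM (0.876), and Mif at 756 and 681 CPM (0.900). Bnip3l at 146 and 141 CPM (0.933 to 1.01) and Ndrg1 at 350 and 343 CPM (0.957 to 1.01) had intervals that include 1. Adm, at 4.91 and 7.07 CPM, was the single hypoxia-regulated gene with an interval above 1, 1.18 to 1.76.

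The glycolytic enzymes of tumour-like cells went in different directions within the pathway. The enzymes Gapdh, Pgam1, Aldoa and Pkm had intervals above 1. Gapdh was at 1096 CPM (1085 to 1107) and 1295 CPM (1283 to 1307), a ratio of 1.18 (1.17 to 1.20). Pgam1 was at 292 and 353 CPM with a ratio of 1.21 (1.18 to 1.24), Aldoa at 311 and 361 CPM with 1.16 (1.13 to 1.19), and Pkm at 735 and 793 CPM with 1.08 (1.06 to 1.1). Pfkl, at 81.9 and 89.2 CPM (1.04 to 1.15), was the fifth member of this group. Their neighbours in the same pathway had intervals below 1. Pgk1 was at 376 and 323 CPM (0.860), Eno1 at 147 and 129 CPM (0.875) and Tpi1 at 301 and 275 CPM (0.915). Ldha was at 507 and 432 CPM with a ratio of 0.853 (0.835 to 0.872), Pdk1 at 54.4 and 44.5 CPM with 0.818 (0.764 to 0.876), and Slc16a3 at 45.6 and 41.1 CPM with 0.902 (0.839 to 0.970). Among the early steps, Slc2a1 was at 181 and 154 CPM (0.855), Hk2 at 347 and 328 CPM (0.946) and Pfkfb3 at 63.2 and 58.9 CPM (0.931). Hk1 at 85.2 and 84.4 CPM (0.941 to 1.04), Gpi1 at 185 and 192 CPM (1.00 to 1.08) and Pfkp at 129 and 126 CPM (0.935 to 1.02) were nearly equal. Slc2a3 was low, at 6.81 and 3.61 CPM, with a ratio of 0.530 (0.423 to 0.661), which was 0.233 with background RNA subtracted and 0.838 with the subsets weighted equally. That weighting also brought Hk2 to 1.08 and Pfkfb3 to 1.04.

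Monocyte-macrophage-like cells differed least of the 3 large classes. Past 1.5-fold lower was 1 of 34 members, Ankrd37, against 1.69% of all 13736 genes, and 0 of 34 were past it on the higher side, against 8.66% of all genes. Ankrd37 was at 22.9 CPM (21.0 to 24.9) and 14 CPM (12.8 to 15.2), a ratio of 0.612 (0.542 to 0.690). The median log2 ratio was -0.24 (-0.33 to -0.12) over the hypoxia-regulated genes and -0.01 (-0.06 to 0.10) over the glucose and glycolysis genes, against 0.05 over all genes. The hypoxia-regulated genes were 0.260% and 0.239% of UMIs, and the glucose and glycolysis genes were 0.482% and 0.496%.

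Several hypoxia-regulated genes were lower in the KPC-shZEB1-labelled library in this class too. Egln3 was at 68.2 and 49.3 CPM with a ratio of 0.723 (0.677 to 0.773), Higd1a at 125 and 92.9 CPM with 0.743 (0.708 to 0.780), and Ero1l at 180 and 134 CPM with 0.746 (0.716 to 0.777). Bnip3 was at 63.5 and 52.4 CPM (0.826), Bnip3l at 102 and 88.0 CPM (0.859) and Ddit4 at 25.6 and 21.5 CPM (0.837). These 6 had the lowest ratios after Ankrd37 among the hypoxia-regulated genes with an interval below 1. P4ha1 was at 159 and 139 CPM (0.877), Hilpda at 519 and 461 CPM (0.888), Mxi1 at 452 and 422 CPM (0.934) and Vegfa at 256 and 247 CPM (0.967). Above 1 were Ndrg1, at 133 and 151 CPM with a ratio of 1.14 (1.09 to 1.19), and Mif, at 472 and 495 CPM with 1.05 (1.02 to 1.07), which was 0.970 with the subsets weighted equally. Adm at 6.27 and 5.12 CPM, Car9 at 3.28 and 2.69 CPM and P4ha2 at 9.47 and 11.1 CPM were low, and their intervals include 1.

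Of the 18 glucose and glycolysis genes of this class, 7 had an interval above 1 and 5 below, with no share over all genes beside them. Aldoa was at 317 and 394 CPM with a ratio of 1.25 (1.21 to 1.28), the largest of the members here, and Gapdh was at 1281 and 1445 CPM with 1.13 (1.11 to 1.14). Hk2 was at 274 and 297 CPM (1.08), Pfkl at 53.3 and 57.8 CPM (1.09), Pfkfb3 at 98.9 and 106 CPM (1.07), Pgam1 at 332 and 351 CPM (1.06) and Pkm at 544 and 563 CPM (1.04). Lower were Tpi1, at 253 and 207 CPM (0.820), Eno1, at 153 and 127 CPM (0.828), Ldha, at 358 and 311 CPM (0.868), Slc16a3, at 94.4 and 82.0 CPM (0.868), and Pgk1, at 329 and 291 CPM (0.884). Tpi1, Eno1, Ldha, Slc16a3 and Pgk1 had an interval below 1 in each of the 3 large classes, although Slc16a3 in granulocyte-like cells was at 1.04 with background RNA subtracted and at 1.01 with the subsets weighted equally. Slc2a1 at 171 and 166 CPM, Hk1 at 43.3 and 46.7 CPM, Gpi1 at 261 and 259 CPM, Pfkp at 230 and 227 CPM, Pdk1 at 21.1 and 20.7 CPM and Slc2a3 at 4.67 and 4.25 CPM had intervals that include 1.

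The cell classes also differed among themselves in which members they carried, in both libraries. Granulocyte-like cells had the highest level of the 11 classes for 19 members in the KPC-shV-labelled library and for 13 in the KPC-shZEB1-labelled library, and the class with the highest level was the same in both for 26 of 34. The highest class was counted for the members alone, with no share over all genes beside it. The members that left the granulocyte-like class were Gpi1 and Gapdh, whose highest level was then in monocyte-macrophage-like cells, Pfkl, Tpi1, Pkm and Ldha, then in tumour-like cells, and P4ha1, then in fibroblast-like cells. Slc2a3 moved into it from mural-like cells, with intervals that overlap in both libraries. In both libraries Pgk1, Pdk1, Mif and Car9 were highest in tumour-like cells, Vegfa and Mxi1 in monocyte-macrophage-like cells, Hk2, Ndrg1, P4ha2 and Adm in fibroblast-like cells, Hk1 and Pfkfb3 in endothelial-like cells, and Pfkp in dendritic-like cells. Fibroblast-like cells held Ndrg1 at 594 and 628 CPM, against 350 and 415 CPM in the next class of each library. For 26 members in the KPC-shV-labelled library and 30 in the KPC-shZEB1-labelled library, the interval of the highest class lay clear of that of the next. Mif in the KPC-shV-labelled library, at 756 CPM in tumour-like and 738 CPM in granulocyte-like cells, was not clear of it.

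**Figure D2:**
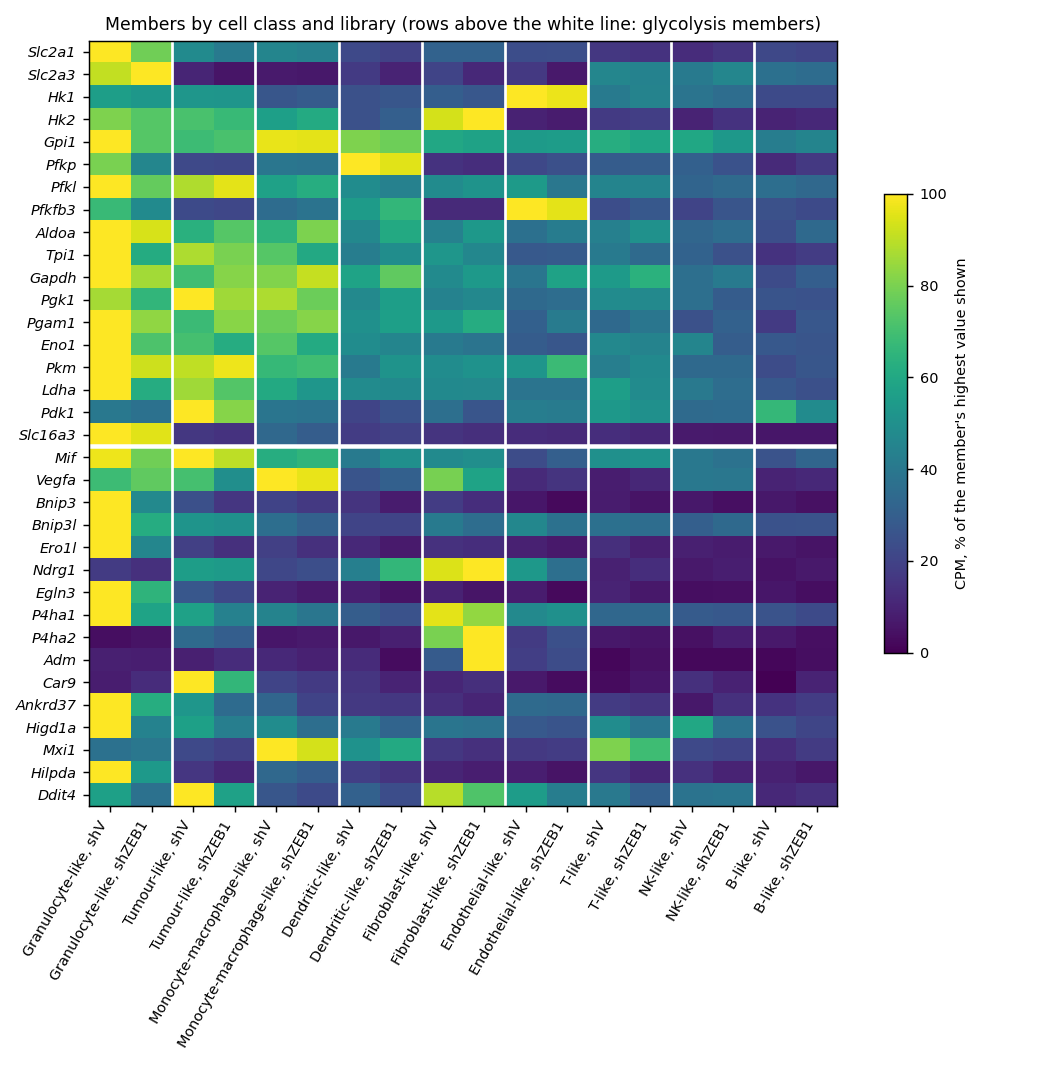
Level of each member (rows) in 9 cell classes of each library (columns), as CPM in percent of the member's highest value over the 18 columns, so that colours compare a gene across classes and not genes with each other. Hilpda, Ero1l, Egln3 and Bnip3 are brightest in the granulocyte-like column of the KPC-shV-labelled library, and Ndrg1, P4ha2 and Adm in the fibroblast-like columns.

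Set side by side, the 3 large classes differed in some members of both lists, with a 2-fold difference in both libraries as the limit. Higher in tumour-like than granulocyte-like cells were 4 members, Pdk1, Ndrg1, P4ha2 and Car9, against 48.0% of all 14249 genes. Lower there were 8, Slc2a3, Pfkp, Pfkfb3, Slc16a3, Bnip3, Ero1l, Egln3 and Hilpda, against 12.6% of all genes. Hilpda in tumour-like cells was 0.157 and 0.200 times its granulocyte-like level, and Slc16a3, the lactate exporter, was 0.164 and 0.155 times. Higher in tumour-like than monocyte-macrophage-like cells were 6 members, against 32.8% of all 14384 genes, namely Pdk1, Ndrg1, Egln3, P4ha2, Car9 and Ddit4, and lower were 2, Mxi1 and Hilpda, against 12.0%. Mxi1 there was 0.222 and 0.208 times its monocyte-macrophage-like level. Higher in granulocyte-like than monocyte-macrophage-like cells were 6 members, Slc2a3, Slc16a3, Bnip3, Ero1l, Egln3 and Ankrd37, against 10.7% of all 12922 genes, and lower was 1, Mxi1, against 21.7%. Egln3 in granulocyte-like cells was 10.1 and 9.11 times its monocyte-macrophage-like level, and Slc2a3 was 12.7 and 15.4 times. Egln3 therefore ran from granulocyte-like through tumour-like to monocyte-macrophage-like cells in falling order in both libraries, and Hilpda from granulocyte-like through monocyte-macrophage-like to tumour-like cells.

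The granulocyte-like class held 4 large subsets, clustered with all members and list genes kept out of the genes used for clustering. They are called here by leading genes, an Rdh12 and Cxcr2 subset, an Abca13 and Siglecf subset, an Ifit1 and Rsad2 subset of interferon-induced genes, and a subset with Ccdc126, Rab15, Mgam and Mreg, called the Mreg subset. The Mreg subset had the highest level of 30 of the 34 members in each library, 16 glucose and glycolysis genes and 14 hypoxia-regulated genes in each. How often this subset was highest over all genes was not counted. Its hypoxia-regulated genes were 0.967% of UMIs in the KPC-shV-labelled library and 0.810% in the KPC-shZEB1-labelled library. In the Rdh12 subset these shares were 0.309% and 0.215%, in the Abca13 subset 0.373% and 0.290%, and in the Ifit1 subset 0.564% and 0.354%. The order of the 4 subsets was thus the same in both libraries.

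Ero1l was at 1944 and 1465 CPM in the Mreg subset, at 919 and 534 CPM in the Ifit1 subset, at 381 and 212 CPM in the Rdh12 subset and at 311 and 243 CPM in the Abca13 subset. Hilpda was at 2669 and 2301 CPM in the Mreg subset, against 1746 and 1027 CPM in the Ifit1 subset, 942 and 587 CPM in the Abca13 subset and 719 and 440 CPM in the Rdh12 subset. Both genes thus stood highest in the Mreg subset and next in the Ifit1 subset in each library. Bnip3 was at 640 and 520 CPM in the Mreg subset and at 128 and 66.8 CPM in the Rdh12 subset. Ldha was at 1003 and 818 CPM against 344 and 256 CPM, and Tpi1 at 606 and 518 CPM against 161 and 112 CPM. Slc2a1 was at 614 and 567 CPM in the Mreg subset and at 277 and 288 CPM in the Rdh12 subset. The lactate exporter Slc16a3 was an exception, highest in the Rdh12 subset at 379 and 427 CPM against 224 and 225 CPM in the Mreg subset. Vegfa was at 272 and 224 CPM in the Mreg subset, at 226 and 254 CPM in the Abca13 subset and at 73.4 and 93.0 CPM in the Rdh12 subset. Egln3, besides the scarce P4ha2, varied least of the hypoxia-regulated genes among the subsets, from 530 to 793 CPM in the KPC-shV-labelled library and from 399 to 670 CPM in the KPC-shZEB1-labelled library.

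**Figure D3:**
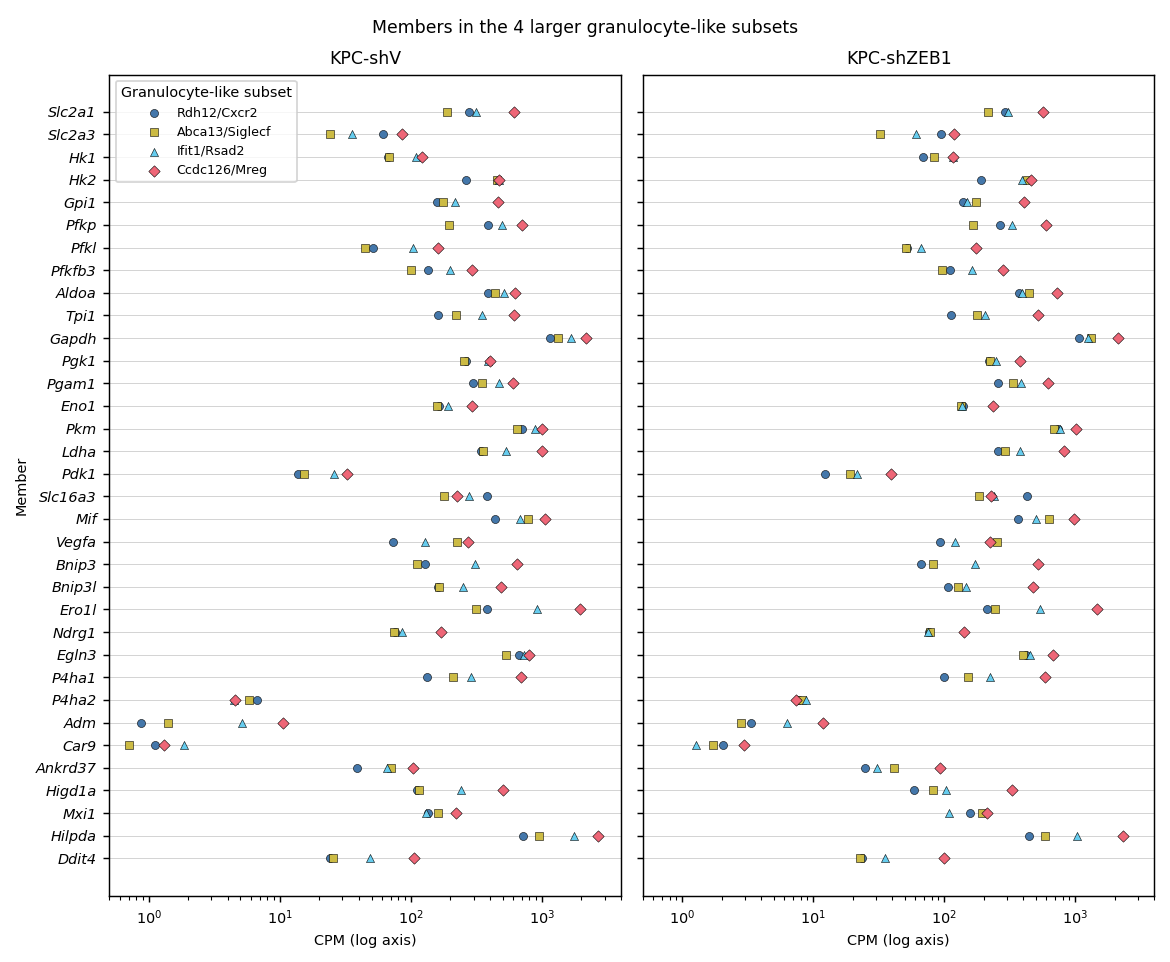
CPM of each member on a log axis in the 4 larger granulocyte-like subsets (marker shapes), with a panel for each library. The Mreg subset (Ccdc126/Mreg) has the highest level of 30 of 34 members in each panel, which was not counted over all genes. Slc16a3 is a visible exception, highest in the Rdh12 subset.

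The subsets took different shares of the class in the 2 libraries. The Mreg subset had 2526 cells, 36.8% of granulocyte-like cells, in the KPC-shV-labelled library and 722 cells, 16.9%, in the KPC-shZEB1-labelled library. The Abca13 subset had 18.2% and 47.1%, the Rdh12 subset 33.8% and 29.7%, and the Ifit1 subset 10.5% and 5.72%. Within the subsets the hypoxia-regulated genes were still lower on balance in the KPC-shZEB1-labelled library, with a median log2 ratio of -0.71 (-0.88 to -0.49) in the Ifit1 subset, -0.50 (-0.66 to -0.28) in the Rdh12 subset, -0.36 (-0.50 to -0.25) in the Abca13 subset and -0.21 (-0.34 to -0.08) in the Mreg subset. The glucose and glycolysis medians were -0.33, -0.17, -0.01 and -0.05 in the same order. All genes had medians of 0.07, 0.12, 0.10 and 0.13.

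For an exchange between the libraries, the share of a subset was taken as its part of the UMIs of the class, not of the cells. With the levels of the KPC-shV-labelled library kept and only these subset shares exchanged, the share of hypoxia-regulated UMIs was 0.799 times its value. With the subset shares kept and only the levels exchanged it was 0.777 times, against 0.614 for the class as a whole. For the glucose and glycolysis genes the same values were 0.862, 0.923 and 0.807. Single members differed in this. Slc2a1 was 0.762 times from the shares alone and 0.979 times from the levels alone, whereas Egln3 was 0.902 times from the shares and 0.727 times from the levels. For Ero1l the values were 0.649 and 0.707, and for Higd1a 0.702 and 0.611. For Slc2a3 they went in opposite directions, 0.763 from the shares and 1.46 from the levels, beside 1.1 for the class. Its ratio within the subsets was 1.33 (1.04 to 1.70) in the Abca13 subset, 1.39 (1.19 to 1.61) in the Mreg subset, 1.54 (1.34 to 1.76) in the Rdh12 subset and 1.71 (1.19 to 2.45) in the Ifit1 subset.

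Inside the Mreg subset Higd1a stood lowest, at 502 and 325 CPM with a ratio of 0.647 (0.594 to 0.702). Ero1l had a ratio of 0.754 (0.725 to 0.784) there and Hilpda 0.862 (0.835 to 0.890). Inside the Rdh12 subset, Bnip3 had a ratio of 0.524 (0.456 to 0.601), Higd1a 0.535 (0.461 to 0.619), Ero1l 0.555 (0.513 to 0.599), Hilpda 0.612 (0.580 to 0.646) and Egln3 0.632 (0.598 to 0.668). Gapdh, in contrast, had ratios of 0.985 (0.953 to 1.02) in the Mreg subset, 0.993 (0.960 to 1.03) in the Abca13 subset and 0.925 (0.891 to 0.959) in the Rdh12 subset.

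Counted cell by cell, with every cell thinned to 1000 UMIs, granulocyte-like cells carried a mean of 3.21 of the 16 hypoxia-regulated genes in the KPC-shV-labelled library and 2.25 in the KPC-shZEB1-labelled library. The share of these cells with at least 3 of the 16 was 56.5% (55.3 to 57.7, exact binomial) and 36.1% (34.7 to 37.6). In the Mreg subset it was 84.0% (82.5 to 85.4) and 77.1% (73.9 to 80.2), in the Ifit1 subset 61.1% and 38.9%, in the Abca13 subset 43.1% and 30.6%, and in the Rdh12 subset 32.8% and 21.3%. In each subset a smaller share of thinned cells thus had a UMI of at least 3 of these genes in the KPC-shZEB1-labelled library. Tumour-like cells reached 34.7% (32.2 to 37.2) and 25.5% (23.2 to 27.9), and monocyte-macrophage-like cells 29.9% (27.7 to 32.1) and 25.3% (23.7 to 27.1). B-like cells, which had the lowest share of the 9 classes with over 50 cells in each library, reached 4.50% (2.42 to 7.57) and 3.67% (2.69 to 4.88). Without thinning, the granulocyte-like shares were 88.8% and 75.4%, at a median of 3147 and 2914 UMIs per cell.

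Hilpda, Ero1l and Bnip3, each past 1.5-fold lower by class sum, were also found in a smaller share of cells. Hilpda was found in 54.6% and 36.0% of thinned granulocyte-like cells, against 12.5% and 8.97% of B-like cells. For Ero1l the shares were 42.3% and 24.4%, against 6.23% and 4.57% of B-like cells, and for Bnip3 23.4% and 11.8%, against 2.08% and 1.79%. For these genes the granulocyte-like shares lay above those of B-like cells in both libraries. Other hypoxia-regulated genes were not found in a smaller share of granulocyte-like cells. These were Vegfa (13.5% and 13.9%), Mxi1 (13.6% and 14.6%), P4ha2 (0.583% and 0.844%), Adm (0.423% and 0.492%) and Car9 (0.131% and 0.164%), with overlapping intervals.

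**Figure D4:**
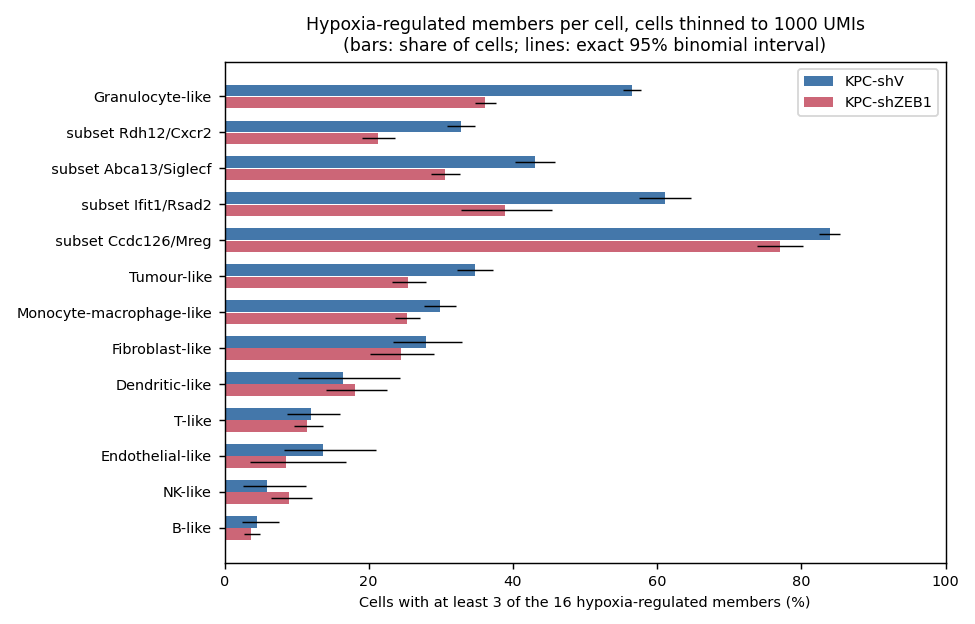
Share of cells with at least 3 of the 16 hypoxia-regulated genes after thinning each cell to 1000 UMIs, in percent, by class and granulocyte-like subset and by library, with exact 95% binomial intervals. Granulocyte-like cells stand at 56.5% and 36.1% and B-like cells at 4.50% and 3.67%.

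Tumour-like cells fell into 4 large subsets. The hypoxia-regulated median log2 ratio was -0.34 (-0.42 to -0.21) in the subset led by Prg4 and Smoc1, -0.32 (-0.42 to -0.22) in that led by Lypd8 and Lama3, -0.25 (-0.68 to 0.16) in that led by S100a14 and Dbf4 and -0.08 (-0.27 to 0.11) in that led by Ugt2b5 and Spink4. The last 2 ranges include 0. Cells of the S100a14 subset held few UMIs, with a median of 2130 and 2255 per cell, against 24681 and 24410 in the whole tumour-like class. Vegfa was at 224 and 162 CPM in the Lypd8 subset, at 176 and 139 CPM in the Prg4 subset and at 147 and 122 CPM in the Ugt2b5 subset. Ero1l was at 175 and 105 CPM in the Prg4 subset (0.60) and at 238 and 201 CPM in the Lypd8 subset (0.845). Car9 was highest in the Lypd8 subset of both libraries, at 26.8 and 17 CPM. A further subset led by Ralyl had 9 cells in the KPC-shV-labelled library and 230 in the KPC-shZEB1-labelled library. There the KPC-shZEB1-labelled library held Ero1l at 116 CPM, Vegfa at 73.1 CPM and Hilpda at 104 CPM, each below the level of the whole tumour-like class in that library. Without this subset 2 members were past 1.5-fold lower and 1 higher. Exchanging only the subset shares left the hypoxia-regulated share of UMIs at 1.03 times its value. Exchanging only the levels gave 0.847 times, beside 0.823 for the class. The value of 1.03 rests in part on the 9 Ralyl cells of the KPC-shV-labelled library, which gave that subset's level. Hypoxia-regulated genes were 0.311% of UMIs in those 9 cells, against 0.200% in the Ralyl subset of the KPC-shZEB1-labelled library.

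Monocyte-macrophage-like cells also differed among themselves. In the subset led by Chil3 and Ccr2, a chemokine receptor of monocytes, Ero1l was at 236 and 132 CPM (0.558), Egln3 at 88.7 and 51.1 CPM (0.577), Bnip3 at 72.8 and 44.8 CPM (0.616) and Ankrd37 at 40.8 and 19.8 CPM (0.484). In the subset led by Mmp12 and Dcstamp, the same genes were at 206 and 177 CPM (0.859), 81.6 and 64.1 CPM (0.786), 77.0 and 72.1 CPM (0.936) and 22.8 and 16.5 CPM (0.722). The Chil3 subset thus held the lower ratios for all 4. The median log2 ratio of the hypoxia-regulated genes was -0.27 (-0.46 to -0.13) in the Chil3 subset, -0.16 (-0.29 to -0.03) in the Mmp12 subset, -0.08 (-0.30 to 0.11) in the subset led by Ms4a7, -0.37 (-0.70 to -0.13) in the subset led by Fcna and Lyve1 and -0.02 (-0.43 to 0.47) in a small subset led by Gata2. Vegfa was lowest in the Fcna subset, at 55.0 and 37.3 CPM, and highest in the Mmp12 subset, at 334 and 310 CPM. Gapdh too was lowest in the Fcna subset, at 618 and 651 CPM, against 1514 and 1829 CPM in the Mmp12 subset.

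**Figure D5:**
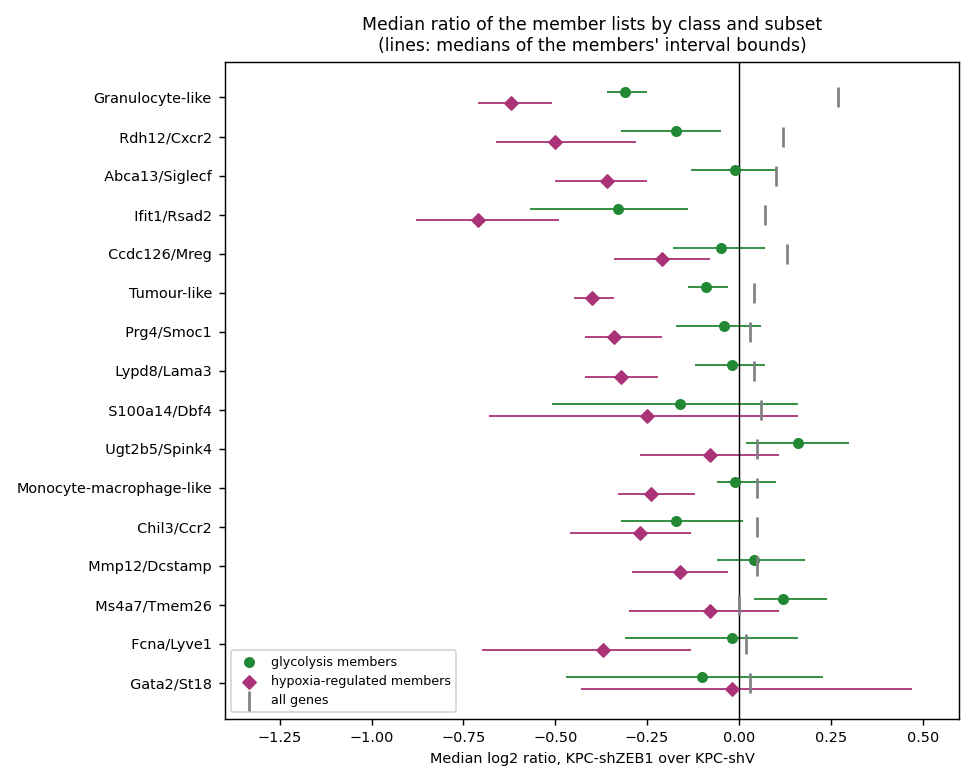
Median log2 ratio, KPC-shZEB1-labelled over KPC-shV-labelled library, of the hypoxia-regulated genes, of the glucose and glycolysis genes and of all genes, by class and subset, with bars from the medians of the members' interval bounds. The hypoxia-regulated median lies at -0.62 in granulocyte-like, -0.40 in tumour-like and -0.24 in monocyte-macrophage-like cells, and the glycolysis median lies nearer to 0 in each of these 3.

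In the smaller classes few members were past 1.5-fold. Dendritic-like cells had 4 of 32 lower (Slc2a3, Bnip3, Ero1l and Egln3), against 4.92% of all genes, and 1 higher, Ndrg1, at 271 and 415 CPM, against 8.33%. T-like cells had 2 of 32 lower, Ero1l at 127 and 83.2 CPM and Egln3 at 67.7 and 44.5 CPM, against 2.97%, and 0 higher, against 7.49%. NK-like cells had 3 of 30 lower (Eno1, Bnip3 and Higd1a), against 3.66%, and 1 higher, Hk2 at 47.9 and 71.8 CPM, against 8.98%. B-like cells had 1 of 31 lower, Egln3 at 42.2 and 25.8 CPM, against 2.94%, and 1 higher, Pgam1 at 72.4 and 116 CPM, against 10.8%. Fibroblast-like cells had 2 of 33 lower (Slc2a3 and Egln3), against 5.19%, and 1 higher, against 5.88%. That gene was Adm, at 15.7 and 55.0 CPM with a ratio of 3.49 (2.94 to 4.16), the largest of any member in any class. Endothelial-like cells had 3 of 32 lower (Bnip3, Egln3 and Hilpda), against 4.79%, and 0 higher, against 8.80%. Egln3 was in the lower group of each of these classes except NK-like cells.

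RNA of granulocytes was present in every other class and was itself lower in the KPC-shZEB1-labelled library. The 9 granulocyte markers summed to 1378 and 705 CPM in tumour-like, 1730 and 1109 CPM in monocyte-macrophage-like, 1641 and 825 CPM in T-like, 1208 and 717 CPM in B-like and 1578 and 760 CPM in fibroblast-like cells, against 37870 and 27034 CPM in granulocyte-like cells, and none of the 9 was at 0 in these classes. Their part in the member ratios was not tested. If S100a8 and S100a9 in T-like cells came only from granulocytes, they would bring 37.9 of the 127 CPM of Ero1l and 11.5 of the 83.2 CPM, and the remainder would have a ratio of 0.802. In dendritic-like cells the remainder of Ero1l would have a ratio of 1.01. The remainders of Egln3 would have ratios of 1.14 in dendritic-like, 0.813 in T-like, 0.675 in B-like, 0.749 in fibroblast-like and 0.424 in endothelial-like cells. For Egln3, endothelial-like cells alone of these 5 classes would thus stay past 1.5-fold lower. The remainders of the other lower genes of endothelial-like cells, Bnip3 and Hilpda, would have ratios of 1.48 and 1.20. In tumour-like cells the remainders of Bnip3, Hilpda, Ero1l and Egln3 would have ratios of 0.708, 0.782, 0.836 and 0.852, and in monocyte-macrophage-like cells those of Ero1l and Hilpda 0.851 and 0.952. In the other direction, the monocyte-macrophage markers in granulocyte-like cells summed to 1097 and 2677 CPM and acinar markers to 70.6 and 406 CPM.

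The rest of the pathway was read from lists of genes outside the 34. Of 11 oxygen-sensing genes, 10 met the minimum in tumour-like cells and 0 were past 1.5-fold. Hif1a, the oxygen-regulated alpha subunit, stood in tumour-like cells at 391 and 294 CPM with a ratio of 0.751 (0.732 to 0.770), at 385 and 363 CPM in granulocyte-like cells (0.944) and at 954 and 873 CPM in monocyte-macrophage-like cells (0.915). Hif1a is regulated mainly as a protein, which was not measured. Egln1, the main prolyl hydroxylase, stood in tumour-like cells at 128 and 103 CPM (0.802) and 73.4 and 51.3 CPM in granulocyte-like cells (0.698). Epas1 in granulocyte-like cells, at 5.96 and 8.91 CPM (1.5), was the only gene of this list past 1.5-fold in the 3 large classes.

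Of 31 other hypoxia-regulated genes, 8 of the 26 that met the minimum in granulocyte-like cells were past 1.5-fold lower and 3 higher, beside 2.90% and 22.5% of all genes of this class. Hmox1, the heme oxygenase, was at 260 and 113 CPM (0.434) and Nos2, the inducible nitric oxide synthase, at 59.2 and 23.3 CPM (0.394), while Ak4, a mitochondrial adenylate kinase, was at 15.6 and 7.25 CPM (0.463). Edn1, the vasoconstrictor endothelin, was at 9.81 and 26.5 CPM (2.70), and Ppfia4 at 1.97 and 4.15 CPM (2.11). In tumour-like cells 4 of 30 were lower and 2 higher, beside 3.75% and 11.4% of all genes, with Angptl4, a lipase inhibitor, at 58.9 and 29.7 CPM (0.503), the metallothionein Mt2 at 355 and 224 CPM (0.632), Stc1 at 2.02 and 0.931 CPM (0.461), Ppfia4 at 1.53 and 2.56 CPM (1.67) and Edn1 at 7.88 and 19.6 CPM (2.49). In monocyte-macrophage-like cells 0 of 26 were lower and 2 higher, beside 1.69% and 8.66% of all genes, namely Edn1 at 5.26 and 12.8 CPM (2.42) and Nos2 at 41.1 and 77.2 CPM (1.88). Edn1 was thus past 1.5-fold higher in each of the 3 classes, and Nos2 was lower in granulocyte-like and higher in monocyte-macrophage-like cells.

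Of 27 other glycolysis genes, 25 met the minimum in tumour-like cells, 3 were past 1.5-fold higher and 1 lower, beside 11.4% and 3.75% of all genes. The lower gene was Pdk4, a brake on pyruvate dehydrogenase, at 16 and 1.45 CPM, a ratio of 0.0909 (0.0666 to 0.121). The higher genes were scarce, with Slc16a7 at 0.692 and 1.95 CPM (2.82), Hkdc1 at 1.93 and 3.08 CPM (1.60) and Ldhb at 1.85 and 2.82 CPM (1.53). In granulocyte-like cells 3 of 17 were lower, beside 2.90% of all genes, and 4 higher, a share near the 22.5% of all genes. Pgm1, which links glycogen to glycolysis, was at 75.1 and 43.0 CPM (0.573), and the 4 higher genes were all scarce, with Ldhb at 2.06 and 4.15 CPM (2.02), Hkdc1 at 1.53 and 2.72 CPM (1.77), Tigar at 1.53 and 2.64 CPM (1.72) and Eno3 at 2.72 and 4.60 CPM (1.70). In monocyte-macrophage-like cells 0 of 21 were lower and 1, Pdk2, was higher, at 1.64 and 2.61 CPM (1.59), beside 1.69% and 8.66% of all genes.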

How the data were processed

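Both libraries were deposited by the authors as raw UMI counts per gene and cell barcode. Per the submitters' processing notes Cell Ranger 7.0.1 and the mm10 build were used, and the treatment of intronic reads is not given in the sources used here. No columns of other samples were present. The members and all gene lists were chosen with earlier results of these data known.

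Barcodes were kept that had 500 genes or more, a UMI total between 1000 and 60000, and no more than 15% of it from mitochondria, which left 11713 of 12594 barcodes in the KPC-shV-labelled library and 12447 of 13271 in the KPC-shZEB1-labelled library. Simulated-doublet scores above 0.2 then removed 314 (2.68%) and 342 (2.75%) cells. The kept cells held 101210348 and 118950942 UMIs. Cells of both libraries were clustered together with scanpy 1.11.5 and leidenalg 0.10.2 on 3000 variable genes, 30 principal components and 20 neighbours at resolution 1.0, without the members and list genes. Clusters were named by marker lists, and 1 cluster in which markers of another class led stayed unnamed. The 2 Aldoa rows were summed (the second held at most 0.0278% of its UMIs).

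UMIs were summed per class or subset and library and divided by the class total. Intervals are exact 95% Poisson and Clopper-Pearson intervals computed with scipy 1.17.1, the ratio interval being conditional on the summed counts, and were checked on simulated data. They cover counting error only. The floor of 3 counts corresponds to 0.0866 and 0.0873 CPM in tumour-like, 0.131 and 0.226 CPM in granulocyte-like and 0.126 and 0.0768 CPM in monocyte-macrophage-like cells. Since each group is 1 library, no test was made. All members are named in the 3 large classes, and elsewhere those past 1.5-fold. Of the other lists, at most the 5 largest differences past 1.5-fold with an interval apart from 1 are named per class, with Hif1a and Egln1 added after their values were seen. The exchange of subset shares, which were shares of UMIs, was added after the data were seen. Promoter windows came from RefSeq (GRCm38.p6) and gene spans from GENCODE vM21.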

Additional observations from a re-analysis of the deposited data

Results flagged for a closer look

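An unnamed cluster, used in no comparison, held RNA of granulocytes and of acinar cells, with granulocyte markers at 50173 and 30484 CPM and acinar markers at 3248 and 2833 CPM in the KPC-shV- and the KPC-shZEB1-labelled libraries. It had 7 cells (0.0614%) in the KPC-shV-labelled library and 308 cells, or 2.54% (2.27 to 2.84), in the KPC-shZEB1-labelled library. Hypoxia-regulated genes were 0.426% and 0.311% of its UMIs.

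Several members had ratios (KPC-shZEB1-labelled over KPC-shV-labelled library) that lay on opposite sides of 1, with intervals apart from 1, in 2 cell classes. The differences between classes were not tested. Between tumour-like and granulocyte-like cells, Slc2a3 had 0.530 and 1.1, Gapdh 1.18 and 0.861, Pgam1 1.21 and 0.831, Vegfa 0.700 and 1.11, and P4ha2 0.862 and 1.44. In granulocyte-like cells, P4ha2 was at the floor of 3 counts in both libraries with background RNA subtracted (0.131 and 0.226 CPM), and Vegfa was at 0.990 with the subsets weighted equally and lower inside the Mreg subset, at 272 and 224 CPM. Tumour-like P4ha2 was at 0.995 with the subsets weighted equally. Between granulocyte-like and monocyte-macrophage-like cells, Gapdh had 0.861 and 1.13 and Ndrg1 0.807 and 1.14. In all, such opposite intervals were found for 9 members between tumour-like and granulocyte-like cells, 11 between granulocyte-like and monocyte-macrophage-like cells and 3 between tumour-like and monocyte-macrophage-like cells. These were counted for the members alone, so how common opposite intervals are over all genes is not known.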

How the results depend on the processing

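Of 198 recomputed values, 161 stayed the same, 36 moved and 1 left its range with a change of sign. A median or per-cell ratio counted as the same inside its main range. A count of members counted as the same when equal to the main count or within 1.5-fold of it. The change of sign was the glycolysis median log2 ratio of tumour-like cells, 0.02 with clusters named by the mean log2 ratio of their markers, where the hypoxia-regulated median was -0.26 and 0 members were past 1.5-fold lower. It was -0.16 with each library clustered alone and -0.03 with no upper UMI limit, where the hypoxia-regulated median was -0.23. Members past 1.5-fold lower in this class were 7 at resolution 2 or with each library clustered alone, and 2 as a mean over cells, with subsets weighted equally (hypoxia-regulated median -0.32), with no upper UMI limit or without the Ralyl subset (1 higher). In granulocyte-like cells the glycolysis median was -0.39 relative to genes of at least 50 CPM, -0.40 without the 100 genes of highest CPM (hypoxia-regulated -0.71), -0.12 with subsets weighted equally (-0.29, 1 member lower) and -0.13 without the Mreg subset (-0.42, 7 lower). Members past 1.5-fold higher there were 0 with at least 200 UMIs, as a mean over cells, with cells kept from 200 genes and 500 UMIs on or without the highest 8% of doublet scores, and 2 with background RNA subtracted. In monocyte-macrophage-like cells the hypoxia-regulated median was -0.11 and 2 members were lower with background RNA subtracted or subsets weighted equally, and 2 were lower as a mean over cells. The ratio of the mean number of hypoxia-regulated genes per cell (0.838 in tumour-like, 0.701 in granulocyte-like and 0.906 in monocyte-macrophage-like cells) was 0.742 in granulocyte-like cells at 2000 UMIs, and 0.963, 0.754 and 0.982 without thinning. The causes were not tested, beyond fewer genes or cells entering. The alternatives that leave out a subset were chosen after the data were seen. No paired analysis was possible because each group has 1 library. Estimated background RNA was 14.8% and 19.6% of UMIs in tumour-like and 17.3% and 24.3% in granulocyte-like cells.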

Other observations

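In the 2 smallest classes, mural-like cells (14 and 10 cells) and acinar-like cells (16 and 36 cells), few members met the minimum of 50 UMIs. Hilpda was at 253 and 116 CPM in mural-like cells, a ratio of 0.460 (0.267 to 0.764), and at 249 and 83.0 CPM in acinar-like cells, a ratio of 0.333 (0.191 to 0.572). Ldha was at 207 and 120 CPM in acinar-like cells, a ratio of 0.579 (0.345 to 0.978). Ddit4 had its highest level of all classes in mural-like cells of both libraries, at 137 and 77.7 CPM, with intervals that overlap those of the next class.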
